A study of Mus musculus with 16 samples.

Results

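The Hox cluster genes encode homeodomain transcription factors that set position along the head-to-tail axis of the embryo. They were taken as every symbol in the count table made of Hox, a cluster letter a to d and a paralog number, with antisense names left out. This gave 39 genes of 22869 counted, 11 in the Hoxa, 10 in the Hoxb, 9 in the Hoxc and 9 in the Hoxd cluster. RNA was sequenced from whole pancreata of mouse embryos at embryonic day 15.5 on a mixed strain background. There were 4 libraries from control embryos, 4 from embryos with 1 lacZ allele at Pdx1 (Pdx1LacZ/+), 3 from embryos with 1 mutant allele of Oc1 (Oc1+/-), and 5 from embryos that carry both alleles. Oc1 is listed under the symbol Onecut1. The labels name no promoter or Cre that would restrict either allele to a cell type. The labels do not give the exact genotype of the controls or say whether embryos were pooled.

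In mammals the Hox genes lie in 4 clusters, and genes with the same number in different clusters are paralogs that descend from 1 ancestral gene. Low-numbered genes at one end of a cluster are expressed from the hindbrain and pharynx backwards, and high-numbered genes at the other end are expressed towards the tail, the limbs, the hindgut and the genital tract. In foregut organs such as lung and pancreas, Hox transcripts come largely from the mesenchyme around the epithelium, and nerves carry them too. Pdx1 itself belongs to ParaHox, the sister group of the Hox family.

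The values are the authors' own comparisons of the 4 genotypes, given as log2 fold changes with p-values adjusted over all genes counted (false discovery rate), or were derived from them where this is said. Levels in single libraries were not analysed here, since the count columns are not tied to samples by any label. Calls required an adjusted p under 0.05 together with at least 1.5-fold change. The table lists 2283 genes, each of which reached an adjusted p under 0.1 with at least 1.5-fold in at least 1 comparison. Pancreatic transcripts were abundant in the authors' deposited table, with a mean log2 CPM of 12.55 for the carboxypeptidase Cpa1, 10.09 for glucagon (Gcg) and 6.09 for the progenitor and acinar factor Ptf1a. The targeted genes stood in the authors' deposited table at -0.47 for Pdx1 in the Pdx1 heterozygotes (FDR-adjusted p = 0.00427) and at -0.48 for Onecut1 in the Oc1 heterozygotes (FDR-adjusted p = 0.146). The Oc1 heterozygous group stood apart in number, with 6.24% of all genes called against control, compared with 0.249% in the Pdx1 and 0.743% in the double heterozygotes.

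Of the 39 Hox genes 16 are in the comparison table and 23 are not. The 16 fall into separate stretches of the clusters. Paralogs 3 to 5 account for 8 of them, out of 10 genes, namely Hoxa3, Hoxb3, Hoxd3, Hoxa4, Hoxb4, Hoxc4, Hoxa5 and Hoxc5. Paralogs 9 to 13 account for the other 8, out of 16 genes, namely Hoxa9, Hoxd9, Hoxa10, Hoxd10, Hoxd12, Hoxa13, Hoxb13 and Hoxd13. None of the 5 genes of paralogs 1 and 2 and none of the 8 genes of paralogs 6 to 8 is listed. From paralog 3 upwards, the genes without a value are Hoxa6, Hoxa7, Hoxa11, Hoxb5, Hoxb6, Hoxb7, Hoxb8, Hoxb9, Hoxc6, Hoxc8, Hoxc9, Hoxc10, Hoxc11, Hoxc12, Hoxc13, Hoxd4, Hoxd8 and Hoxd11. For the genes without a value it is known only that they did not reach the listing threshold, and whether they were stable or had too few reads is not resolved by the table. Listing depends on the comparisons themselves, so the listed genes do not stand for all 39.

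**Figure D1:**
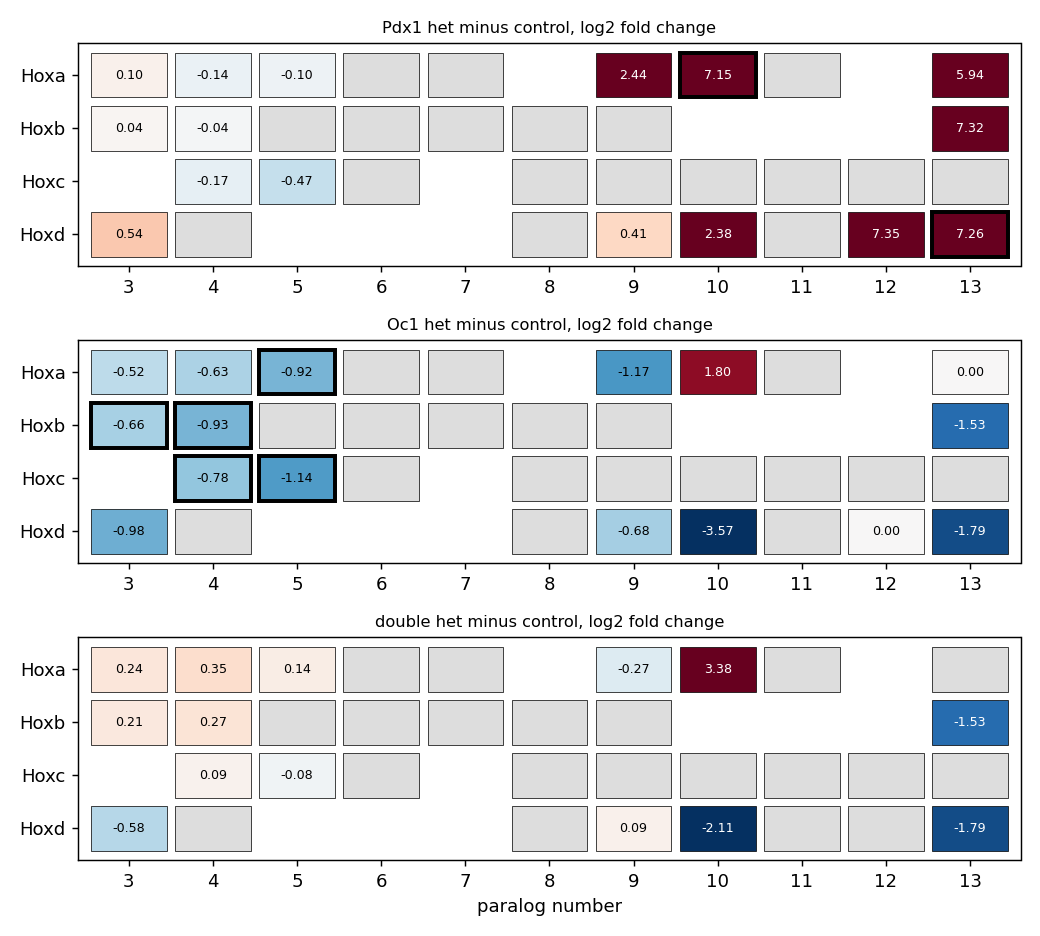
Map of the Hox genes of paralogs 3 to 13 by cluster (rows) and paralog number (columns), with the log2 fold change against control in the Pdx1, Oc1 and double heterozygotes. Colours run from -2 (blue) to 2 (red) and are saturated beyond, heavy frames mark called genes, and grey boxes are genes that are not listed or have no value in that comparison. The 5 called genes of the Oc1 panel lie at paralogs 3 to 5 and the 2 of the Pdx1 panel at paralogs 10 and 13. Nearly all reads of those 2 genes stood in a single column of the count table, so their values are not shown to be a property of the genotype.

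The start regions of 4 called genes are shown so that the lower and the higher set can be set side by side. Hoxb4 and Hoxa5 were called lower in the Oc1 heterozygotes, and Hoxd13 and Hoxa10 were called higher in the Pdx1 heterozygotes. Nearly all reads of Hoxd13 and Hoxa10 stood in a single column of the count table. Their calls are therefore not shown to be a property of the genotype. Each sequence is the 250 bases before an annotated transcript start, 5′ to 3′ on the gene's strand, from RefSeq on build GRCm38.p6. That build differs from the mm9 build of the counts. Capitals mark matches, on both strands, to the CCAAT box (CCAAT), the TATA box (TATAAA), the Onecut cores ATCAAT and ATCGAT, the Hox-Pbx site TGATNNAT, the E-box CACGTG and the retinoic acid element made of a direct repeat of AGGTCA spaced by 5 bases. Matches that overlap run together.
Hoxb4, chr11:96318017-96318266, plus strand: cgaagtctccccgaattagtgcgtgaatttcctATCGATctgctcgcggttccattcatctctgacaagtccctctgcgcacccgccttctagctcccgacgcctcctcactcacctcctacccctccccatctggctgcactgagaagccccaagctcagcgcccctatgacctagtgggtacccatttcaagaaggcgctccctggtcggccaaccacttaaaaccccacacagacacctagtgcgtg
Hoxa5, chr6:52204588-52204837, minus strand: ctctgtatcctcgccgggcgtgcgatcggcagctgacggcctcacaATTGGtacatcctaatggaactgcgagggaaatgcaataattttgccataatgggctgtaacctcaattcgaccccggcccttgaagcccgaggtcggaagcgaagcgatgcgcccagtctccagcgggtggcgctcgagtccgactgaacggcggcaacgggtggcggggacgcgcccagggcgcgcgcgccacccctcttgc
Hoxd13, chr2:74667975-74668224, plus strand: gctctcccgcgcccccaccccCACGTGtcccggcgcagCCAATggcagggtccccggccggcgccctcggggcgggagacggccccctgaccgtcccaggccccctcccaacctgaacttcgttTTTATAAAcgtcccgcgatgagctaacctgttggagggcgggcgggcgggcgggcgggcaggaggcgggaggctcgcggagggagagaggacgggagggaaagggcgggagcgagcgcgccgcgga
Hoxa10, chr6:52234940-52235189, minus strand: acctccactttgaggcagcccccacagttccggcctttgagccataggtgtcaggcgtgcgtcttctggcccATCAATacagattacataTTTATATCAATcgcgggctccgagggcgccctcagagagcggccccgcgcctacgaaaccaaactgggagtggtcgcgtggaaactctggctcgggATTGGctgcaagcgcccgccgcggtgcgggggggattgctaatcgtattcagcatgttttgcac

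In these windows Hoxb4 held 1 ATCGAT, starting 217 bases before the start, and Hoxa5 held 1 CCAAT on the reverse strand at 204 bases. The Hoxd13 window held CACGTG at 229 bases, CCAAT at 212 bases and a TATAAA on each strand that overlap each other. The Hoxa10 window, before the downstream of its annotated starts, held ATCAAT at 178 and at 155 bases, the latter overlapping a reverse TATAAA, and a reverse CCAAT at 64 bases. The window before the other annotated start of Hoxa10, chr6:52240855-52241104, held none of the motifs. Of the 39 Hox genes 22 have such a window in the RefSeq table, 12 of them among the 16 listed. A Hox gene was counted if any of its windows held the motif, while the share over all is per window, so the units differ. CCAAT occurred in 14 of the 22 genes, against 33.8% of all 32851 windows. ATCAAT occurred in 6 of the 22 (6.72% of all windows), ATCGAT in 1 (0.728%), TGATNNAT in 4 (7.68%), TATAAA in 4 (12.4%), CACGTG in 4 (6.02%) and the retinoic acid element in none (0.00913%). These are matches of letters and say nothing about binding.

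Oc1 heterozygous pancreata had lower transcript levels of Hox genes of paralogs 3 to 5 than control pancreata. Hoxb3, Hoxb4, Hoxc4, Hoxa5 and Hoxc5 fell, by 0.66 to 1.14 on the log2 scale, and no Hox gene rose. Over all 39 Hox genes 5 were called lower, 12.8% of them, where 2.59% of all genes were called lower in this comparison and 3.66% higher. The log2 fold changes of the 8 listed genes of paralogs 3 to 5 ran from -0.52 to -1.14, and each of these genes was listed through a comparison that involves the Oc1 heterozygotes, so their shared sign is no added support.

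Approximate levels per genotype were computed from the mean log2 CPM of the authors' deposited table and its fold changes, since no level per group is given. Hoxb3, a gene of the hindbrain and pharyngeal region, stood at about 25.8 CPM in control, 26.6 in the Pdx1, 16.3 in the Oc1 and 29.8 in the double heterozygotes. By the values of the authors' deposited table, Hoxb3 fell by 0.66 in the Oc1 heterozygotes (log2 fold change, adjusted p = 3.44e-06). The Oc1 group was the lowest of the 4, and the Pdx1 heterozygotes lay close to control.

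Hoxa5, required in the mesenchyme for lung formation in the mouse, stood at about 22.9 CPM in control, 21.3 in the Pdx1, 12.1 in the Oc1 and 25.2 in the double heterozygotes. It fell by 0.92 in the Oc1 heterozygotes by the authors' deposited table (FDR-adjusted p = 3.87e-05). Hoxb4, known for expanding blood stem cells when overexpressed, stood at about 10.6, 10.3, 5.56 and 12.8 CPM in the same order. Its log2 fold change in the Oc1 heterozygotes was -0.93 in the authors' deposited table (FDR-adjusted p = 1.43e-05). Both genes were thus lower by nearly the same factor, 1.90-fold for Hoxa5 and 1.91-fold for Hoxb4.

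The neighbouring genes Hoxc4 and Hoxc5, which pattern the neck and upper trunk, were the called members of the Hoxc cluster. Hoxc5 stood at about 7.36 CPM in control, 5.30 in the Pdx1, 3.35 in the Oc1 and 6.97 in the double heterozygotes. Its fall in the Oc1 heterozygotes was the largest among the called Hox genes in the authors' deposited table (-1.14, adjusted p = 0.00014). Hoxc4 stood at about 6.65, 5.90, 3.87 and 7.07 CPM in the same order, with a log2 fold change of -0.78 by the authors' deposited table (FDR-adjusted p = 0.000651).

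The other 3 listed genes of these paralogs had values in the same direction but were not called. Hoxa3, needed for thymus and parathyroid formation, had -0.52 in the authors' deposited table with an adjusted p of 0.0105, which is 1.44-fold and short of the minimum. Hoxa4 stood at -0.63 by the authors' deposited table with an adjusted p of 0.0509. Hoxd3, with a mean log2 CPM of 0.58, stood at -0.98 by the authors' deposited table (FDR-adjusted p = 0.184). Their approximate levels in control, Pdx1, Oc1 and double heterozygotes were 13.1, 14.1, 9.11 and 15.5 CPM for Hoxa3, and 4.65, 4.23, 2.99 and 5.92 CPM for Hoxa4. For Hoxd3 they were 1.63, 2.37, 0.829 and 1.10 CPM. The standard errors implied by fold change and p-value were 0.12 for Hoxb3, 0.19 for Hoxa5, 0.18 for Hoxb4, 0.19 for Hoxc4, 0.25 for Hoxc5 and 0.49 for Hoxd3. In the RefSeq annotation the span of Hoxb3 overlaps Hoxb4, and that of Hoxa3 overlaps Hoxa4, Hoxa5 and Hoxa6, so reads of such neighbours may have been shared between them.

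**Figure D2:**
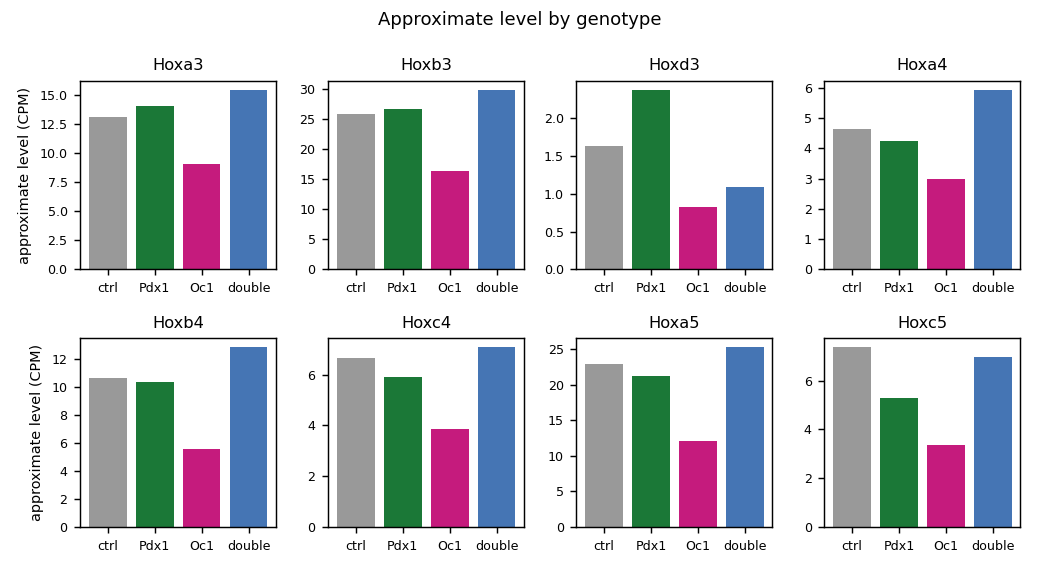
Approximate level in CPM (vertical axis, from 0, a separate scale for each gene) in control, Pdx1, Oc1 and double heterozygotes for the 8 listed Hox genes of paralogs 3 to 5. Bars are derived from the authors' mean level and fold changes and carry no error; for Hoxb3 they stand at 25.8, 26.6, 16.3 and 29.8 CPM.

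The lower Hox transcripts of the Oc1 heterozygotes went with lower transcripts of some mesenchymal genes. In whole tissue, fewer cells of a type and less RNA per cell cannot be told apart. Of 17 counted pancreatic mesenchyme markers 4 fell and none rose in the Oc1 heterozygotes, where 2.59% of all genes were called lower and 3.66% higher. Only 7 of the 17 are listed, and the others did not reach the listing threshold in any comparison. By the values of the authors' deposited table, Tcf21, a factor of visceral mesenchyme, fell by 1.11 (FDR-adjusted p = 1.68e-06) and the growth factor receptor Pdgfra by 0.61 (FDR-adjusted p = 0.00118). Of 6 counted spleen anlage markers 5 fell, and Tcf21, Wt1 and Nkx2-5 belong to both lists. Among them Nkx3-2, a factor of the splanchnic mesoderm, fell by 1.67 and Tlx1, required for the spleen, by 0.90 in the authors' deposited table (FDR-adjusted p = 5.34e-06 and 0.0464).

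Neural markers moved in the same comparison, with 6 of 16 lower and 1 higher. Of 16 pancreatic epithelium markers 7 rose and 1 fell. Over all genes 2.59% were called lower and 3.66% higher in this comparison. The Oc1 libraries also differed from control in sex-linked transcripts, with Xist at -8.78 and Ddx3y at 2.64 in the authors' deposited table (FDR-adjusted p = 0.00249 and 0.037). The part of these differences in the Hox result was not tested.

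Some axial patterning factors were also lower in the Oc1 heterozygotes. Gdf11, a secreted factor that sets the axial position of Hox domains in the mouse, fell by 1.22 in the authors' deposited table (FDR-adjusted p = 2.15e-09). The retinoic acid receptor Rarb fell by 0.69 and Cyp26b1, an enzyme that degrades retinoic acid, by 1.09 in the authors' deposited table (FDR-adjusted p = 0.000277 and 0.00524). These were 3 of 20 counted axial patterning factors, with none higher, beside 2.59% of all genes lower and 3.66% higher. Of 26 counted Polycomb and trithorax regulators Cbx2, a Polycomb subunit, fell by 0.69 and Cbx7, another, rose by 0.60 in the authors' deposited table (FDR-adjusted p = 6.5e-08 and 0.0179). With 1 gene in each direction, this list is near the share of all genes called. None of the 9 Hox cofactors of the Pbx, Meis and Pknox families is listed, so no member reached the listing threshold.

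Against control, double heterozygous pancreata had no called Hox gene in the authors' edgeR test, where 0.188% of all genes were called higher and 0.555% lower. Without adjustment, 2 listed Hox genes had a p under 0.05 with a higher value and none with a lower one. These were Hoxb3 at 0.21 and Hoxa10 at 3.38 in the authors' deposited table (FDR-adjusted p = 0.671 and 0.597). Hoxa5 stood at 0.14, Hoxb4 at 0.27, Hoxc4 at 0.09 and Hoxc5 at -0.08 by the authors' deposited table (FDR-adjusted p = 1, 0.788, 1 and 1). The double heterozygotes carry the same Oc1 allele as the single ones, so both genotypes were compared directly. Onecut1 itself was called against control in neither genotype. It stood at -0.27 in the double and -0.48 in the Oc1 heterozygotes by the authors' deposited table (FDR-adjusted p = 0.954 and 0.146).

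Double heterozygous pancreata had higher levels of 7 Hox genes of paralogs 3 to 5 than Oc1 heterozygous pancreata. This comparison is not among those of the authors' table and was derived from it, with approximate standard errors. It uses the same Oc1 libraries as the comparisons through which these genes were listed. Its calls and their shared sign are therefore no independent support for the Oc1 result above. Hoxa3, Hoxb3, Hoxa4, Hoxb4, Hoxc4, Hoxa5 and Hoxc5 were called higher, 7 of 39 or 17.9%, where 2.09% of all genes were called higher and 2.79% lower. Hoxb4 was higher by 1.21 ± 0.17 on the log2 scale (approximate SE), or 2.31-fold, with a Benjamini-Hochberg adjusted p of 3.59e-10 from the derived normal test over all genes. Hoxb3 was higher by 0.87 ± 0.12 (FDR-adjusted p = 1.83e-11) and Hoxa5 by 1.07 ± 0.18 (FDR-adjusted p = 2.19e-07) in the derived test over all genes. The other 4 called genes ranged from 0.76 for Hoxa3 to 1.06 for Hoxc5. Hoxd3 stood at 0.40 ± 0.46, with a 95% interval from -0.50 to 1.30 that holds both no change and the size of the others.

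The difference of differences between the alleles (the interaction) was called positive for the same 7 Hox genes, 17.9% of 39, where 1.66% of all genes were called positive and 2.97% negative. It reached 1.53 for Hoxc5, the highest of the 7. The interaction holds the same Oc1 heterozygote values, so it is not independent of the calls above.

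The mesenchymal and axial patterning genes differed between these genotypes in the same direction. In the derived comparison Tcf21 was higher in the double than in the Oc1 heterozygotes by 1.53 and Nkx3-2 by 2.04 on the log2 scale (FDR-adjusted p = 4e-13 and 6.37e-10). Of 17 counted mesenchyme markers 7 were called higher, and of 6 counted spleen anlage markers 5, with none lower in either list. Over all genes 2.09% were called higher and 2.79% lower. Tcf21, Wt1 and Nkx2-5 belong to both lists. The other counted markers are not listed, and those listed had already passed the listing threshold. Gdf11 was higher by 1.03, Rarb by 0.75 and Cbx2 by 0.62 (FDR-adjusted p = 7.29e-08, 2.35e-05 and 3.37e-07, derived over all genes). In the same derived comparison 7 of 16 pancreatic epithelium markers were called lower and none higher, and Xist differed by 8.18 (FDR-adjusted p = 0.000619). In the interaction 6 epithelial markers were called lower and Xist stood at 8.64 (FDR-adjusted p = 0.0282). The part of these differences in the Hox values was not tested.

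**Figure D3:**
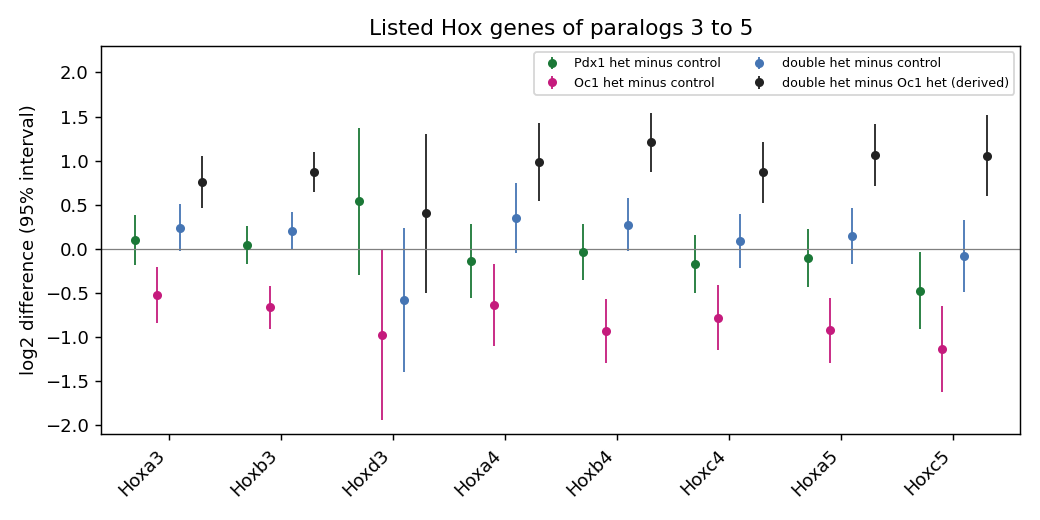
Log2 differences with approximate 95% intervals (vertical axis) of the 8 listed Hox genes of paralogs 3 to 5 in 4 comparisons. The Oc1 minus control values lie from -0.52 to -1.14, and the derived double minus Oc1 values lie at 0.40 or above for each gene.

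**Figure D4:**
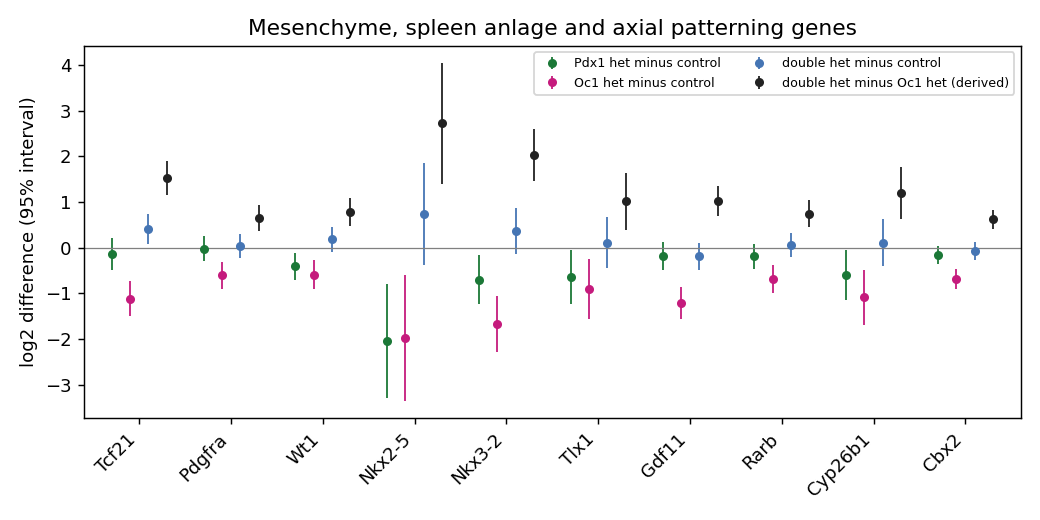
Log2 differences with approximate 95% intervals (vertical axis) of 6 mesenchyme and spleen anlage genes, 3 axial patterning genes and the Polycomb gene Cbx2 in the same 4 comparisons, shown beside the Hox genes they moved with; a point without a bar has no interval. Tcf21 stands at -1.11 in the Oc1 heterozygotes and at 1.53 between double and Oc1 heterozygotes.

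In the comparison of Pdx1 heterozygous with control pancreata a pair of high-numbered Hox genes was called, but their reads are very unevenly spread over the libraries. On inspection of the count table, whose columns no label ties to a sample, nearly all reads of Hoxa10, Hoxa13, Hoxb13, Hoxd12 and Hoxd13 stood in one and the same column. The values below are therefore not shown to be a property of the genotype. Hoxd13 and Hoxa10 rose in the authors' test, 2 of 39 Hox genes or 5.13%, where 0.206% of all genes were called higher. None was called lower, against 0.0437% of all genes. Hoxd13, which patterns digits, hindgut and genital tract, had a log2 fold change of 7.26 in the authors' deposited table (FDR-adjusted p = 0.0479). Hoxa10, a gene of the lumbar region and the uterus, had 7.15 in the authors' deposited table (FDR-adjusted p = 0.0178). These folds set a group with reads against groups with few or none, so their size depends on the fitted floor and is no bound.

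Other genes of paralogs 9 to 13 had positive values that were not called. Hoxd12, a limb and genital gene, stood at 7.35, Hoxb13, a gene of the tail and prostate, at 7.32 and Hoxa13 at 5.94 by the authors' deposited table (FDR-adjusted p = 0.0793, 0.0656 and 0.304). Hoxa9, Hoxd10 and Hoxd9 stood at 2.44, 2.38 and 0.41 by the authors' deposited table (FDR-adjusted p = 0.611, 0.925 and 1). Each listed gene of these paralogs was listed through a comparison in which the Pdx1 heterozygotes are the higher group, so their shared sign is set by the listing.

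The levels behind these values are low. In the authors' deposited table the mean log2 CPM over all libraries was -0.15 for Hoxd13, -0.32 for Hoxb13, -1.54 for Hoxd12, -1.61 for Hoxa10 and -2.43 for Hoxa13. The standard errors implied for these 5 genes were 1.73 to 2.05 on the log2 scale, against 0.11 to 0.22 for the listed genes of paralogs 3 to 5 other than Hoxd3. The comparison table gives no value per library, and the fit without the library that carries most of these reads could not be made.

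The Pdx1 allele alone left the listed genes of paralogs 3 to 5 uncalled, with log2 fold changes from -0.47 for Hoxc5 to 0.54 for Hoxd3 in the authors' deposited table.

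In the other genotypes the high-numbered genes had no called change against control. Hoxd13 had the same value of -1.79 in the Oc1 and the double heterozygotes by the authors' deposited table (FDR-adjusted p = 0.582 and 0.962). Hoxb13 likewise stood at -1.53 in both by the authors' deposited table (FDR-adjusted p = 0.628 and 0.982). The derived difference between double and Oc1 heterozygotes was 0 for Hoxd13 and for Hoxb13. Such equal values compare groups with few or no reads, so their size depends on the fitted floor. They are not shown to be falls. Hoxd10 stood at -3.57 and -2.11, Hoxa9 at -1.17 and -0.27 and Hoxd9 at -0.68 and 0.09 in Oc1 and double heterozygotes, per the authors' deposited table. None of these 3 genes lay above control in the Oc1 heterozygotes, whereas Hoxa10 had positive values in both genotypes. Hoxd12 and Hoxa13 have a log2 fold change of 0 in the Oc1 heterozygotes and no value in the double heterozygotes by the authors' deposited table.

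Direct comparisons with the Pdx1 heterozygotes gave more calls. Those of Hoxa10, Hoxb13, Hoxd12 and Hoxd13 rest on the same unevenly spread reads. Hoxa9, Hoxd9 and Hoxd10 were also called between the single heterozygotes, and how their reads spread over the libraries was not analysed. Double heterozygotes had lower Hoxd13, Hoxb13 and Hoxd12 than Pdx1 heterozygotes, 3 of 39 Hox genes or 7.69%, where 0.63% of all genes were called lower and 0.232% higher. Their log2 fold changes were -9.05, -8.86 and -7.35 in the authors' deposited table taken in the opposite sense (FDR-adjusted p = 0.000606, 0.0014 and 0.00956). Hoxa10 stood at -3.77 by the authors' deposited table taken in the opposite sense (FDR-adjusted p = 0.114). Both single heterozygotes differed in 13 of 39 Hox genes, or 33.3%, each of them higher with the Pdx1 allele than with the Oc1 allele, where 2.2% of all genes were called higher and 2.46% lower. They comprise 6 genes of paralogs 3 to 5 and 7 of paralogs 9 to 13. Hoxb3 differed by 0.71, Hoxb4 by 0.90, Hoxd3 by 1.52, Hoxd13 by 9.05 and Hoxd9 by 1.10 in the authors' deposited table (FDR-adjusted p = 1.27e-06, 5.81e-05, 0.0232, 0.00276 and 0.0465). The comparisons with control and between genotypes use the same libraries, so these counts are not independent of those above.

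Single markers of intestine had high values in the same comparison, while most of their list was not called. In the hindgut, stomach and intestine list 1 of 16 genes was called higher and none lower in the Pdx1 heterozygotes. Over all genes 0.206% were called higher and 0.0437% lower. The called gene was Lgals4, a galectin of gut epithelium, at 3.52 in the authors' deposited table (FDR-adjusted p = 0.00936). Cdx1, an intestinal homeobox gene that acts upstream of Hox genes in the mouse embryo, stood at 3.21 by the authors' deposited table (FDR-adjusted p = 0.152). Other members had lower values, with Gkn2 at -3.60, Apoa1 at -1.08 and Barx1 at -0.54 by the authors' deposited table (FDR-adjusted p = 0.668, 0.593 and 0.513). Between double and Pdx1 heterozygotes Cdx1 was lower by 3.90 and Lgals4 by 3.32 in the authors' deposited table (FDR-adjusted p = 0.00476 and 0.0014).

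None of the 6 smooth muscle markers was called against control, while 5 are listed. Myh11, Cnn1 and Actg2, contractile proteins, stood at 2.21, 3.18 and 2.05 by the authors' deposited table (FDR-adjusted p = 0.0553, 0.0601 and 0.0885). Clca3 and Atoh1, genes of intestinal goblet and secretory cells, were chosen after their values were seen. Clca3 rose by 8.84 and Atoh1 stood at 6.82 by the authors' deposited table (FDR-adjusted p = 0.0106 and 0.0503). Their mean log2 CPM was -0.34 and -1.91, with implied standard errors of 2.06 and 1.81. Of 16 kidney and urogenital markers Kap rose by 11.01 and Six2 fell by 3.78 in the authors' deposited table (FDR-adjusted p = 0.0101 and 0.0291). Over all genes 0.206% were called higher and 0.0437% lower. Kap was also higher in the double heterozygotes (a log2 fold change of 10.59, FDR-adjusted p = 0.00418, from the authors' deposited table), where the high-numbered Hox genes were not called. The implied standard errors of Kap were 2.54 in the Pdx1 and 2.49 in the double heterozygotes. How the reads of Kap, Clca3 and Atoh1 spread over the libraries was not analysed. The part of these transcripts in the Hox values was not tested.

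**Figure D5:**
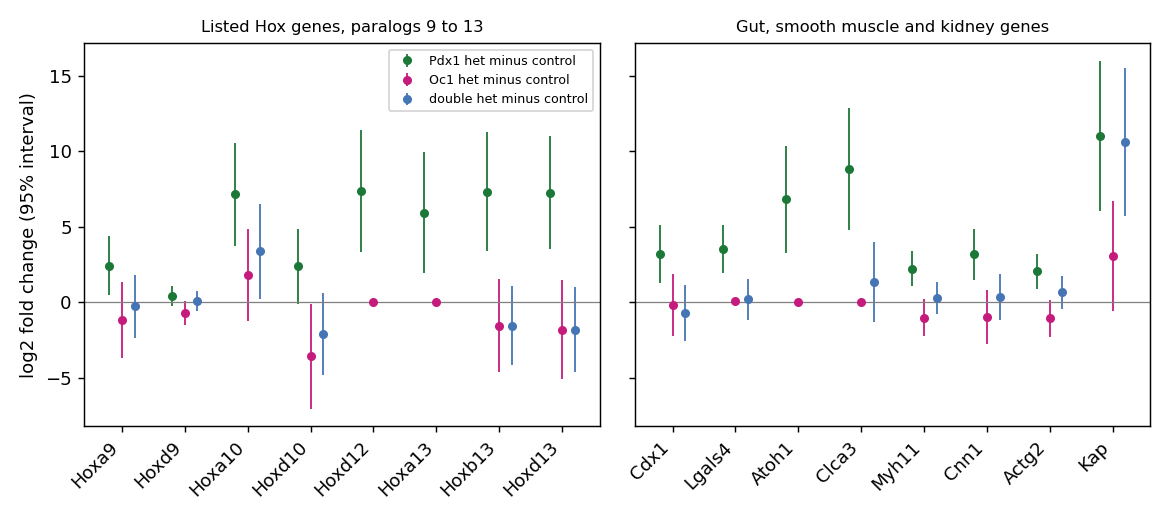
Log2 fold changes against control with approximate 95% intervals (vertical axis) in the Pdx1, Oc1 and double heterozygotes for the 8 listed Hox genes of paralogs 9 to 13 (left) and for 8 gut, smooth muscle and kidney genes (right); a point without a bar has no interval. Hoxd13 stands at 7.26 and Lgals4 at 3.52 in the Pdx1 heterozygotes, and Kap is high in both Pdx1 and double heterozygotes. The 8 genes on the right all have positive values in the Pdx1 heterozygotes, and Clca3 and Atoh1 were chosen after their values were seen. Members of the lists with negative values there, such as Gkn2 (-3.60), Apoa1 (-1.08), Barx1 (-0.54) and Six2 (-3.78), are not drawn.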

How the data were processed

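Each isolated pancreas went into Trizol, and libraries were made with a TruSeq RNA kit (V2), per the labels' protocols. CASAVA 1.8.2, edgeR and the build mm9 are named in the submitters' processing notes; the aligner, the counting method and the model are not given in the sources used here. The kit is not described as stranded, so antisense reads cannot be told apart. The authors' comparison table holds log2 fold changes, mean log2 CPM, p-values and adjusted p-values in 5 blocks, per the file headers. The 16 count columns of the deposited read table are tied to samples by no label and were left unused in every computation; the gene symbols, transcript accessions and a flag of that table were read, so depth and outlying libraries were not analysed here. Replicate origin is not labelled, so the spread behind the p-values is that between libraries and may be technical. The 39 Hox accessions all matched RefSeq by symbol.

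Block headings were checked by arithmetic. The heading of block 4 names double and Pdx1 heterozygotes, and its values were Pdx1 minus double in 2275 of 2275 rows (tolerance 1e-06) so signs were reversed. The heading of block 5 names double and Oc1 heterozygotes, and its values were Pdx1 minus Oc1 in 2279 of 2279 rows. Exchanged headings of blocks 1 and 3 would also give this, but the variance of block 3 relative to block 1 was 0.905, where group sizes give 0.9 as printed and 1.11 exchanged. In 8 of 12 rows with an empty block later values were moved back by 1 column. A standard error was taken as fold change over the normal quantile of its p, unless p was 0.9 or more; it is rough for genes with few reads. Double against Oc1 heterozygote and the interaction are sums of the authors' fold changes, with variances summed over blocks, scaled by group size, and two-sided normal p-values with Benjamini-Hochberg adjustment over 22869 genes, setting those not listed to 1. Levels per group assume that the mean log2 CPM is a plain mean over libraries.

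Every Hox gene is counted, the genes of paralogs 1 and 2 are not reported here one by one, and from each other list the listed members with the lowest adjusted p, up to 4 per comparison, were named, with exceptions stated. Members, gene lists and motifs were chosen with earlier results of these data known. The edgeR refit fixed as an alternative could not be run. Python 3.11.15, pandas 2.3.3 and scipy 1.17.1 were used.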

Additional observations from a re-analysis of the deposited data

Results flagged for a closer look

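For 7 Hox genes the difference between groups with and without the Oc1 mutant allele was not the same with and without the Pdx1 lacZ allele. This was tested as the interaction, the double minus the Pdx1 heterozygote difference less the Oc1 heterozygote minus control difference, derived from the authors' comparisons with a normal test over all genes. All 7 belong to paralogs 3 to 5, 17.9% of the 39 Hox genes, where 1.66% of all genes were called with a positive interaction. The log2 interaction was 0.66 ± 0.21 (approximate SE) for Hoxa3, 0.83 ± 0.16 for Hoxb3, 1.12 ± 0.31 for Hoxa4 and 1.24 ± 0.24 for Hoxb4. It was 1.04 ± 0.25 for Hoxc4, 1.17 ± 0.25 for Hoxa5 and 1.53 ± 0.33 for Hoxc5. The Benjamini-Hochberg adjusted p-values ran from 1.69e-05 for Hoxb4 to 0.0352 for Hoxa3. Hoxd3, the other listed gene of these paralogs, stood at -0.14 ± 0.64, with a 95% interval from -1.39 to 1.12, and its difference from the other genes was not tested. No gene of paralogs 9 to 13 was called among the 6 with an interaction test, and 3 had an unadjusted p under 0.05 with a negative sign. The mesenchymal genes Tcf21 and Nkx3-2 had interactions of 1.65 and 2.74 (adjusted p = 1.07e-07 and 9.98e-09). Xist stood at 8.64 (adjusted p = 0.0282). Of 16 pancreatic epithelium markers 6 were called with a negative interaction and none with a positive one, where 2.97% of all genes were called negative. The part of these differences in the Hox values was not tested, so the interaction is not shown to be an effect of the alleles on Hox genes.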

How the results depend on the processing

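The counts of called Hox genes that moved by more than 1.5 times were the following. Against control, the 2 calls of the Pdx1 heterozygotes became 4 at an adjusted p under 0.1, 0 at 0.01 and 0 when a mean log2 CPM of 0 or more was required, and the 5 calls of the Oc1 heterozygotes became 1 at a fold change of at least 2. The 3 calls between double and Pdx1 heterozygotes became 5 at 0.1 and 0 with the level minimum, and the 13 between the single heterozygotes became 6 at 0.01, 8 at 2-fold and 6 with the level minimum. The 7 of double against Oc1 heterozygotes became 3 at 2-fold. No direction changed, since these settings use the same fold changes. The calls at paralogs 9 to 13 therefore rest on genes with few reads. Each variance estimate alone left 7 calls in both derived comparisons; for double against Oc1 heterozygote this setting was chosen after seeing the data. No paired analysis was possible because the count columns carry no replicate number. The refit with TMM, DESeq2, no filter, a replicate block or with replicates left out was not run for the same reason, so no call could be recomputed without a library. For Hoxa10, Hoxa13, Hoxb13, Hoxd12 and Hoxd13 nearly all reads stand in one count column, which no label ties to a sample.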

Other observations

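Of 14 homeobox genes related to the Hox clusters by descent or position, 4 fell and none rose in the double heterozygotes against control, where 0.555% of all genes were called lower. One of the 4 is the targeted gene Pdx1, and Gsx1 stood at 1.42 by the authors' deposited table (FDR-adjusted p = 0.982). The others were Mnx1, a factor of early pancreas, motor neurons and beta cells, and the Distal-less homeobox factors Dlx1 and Dlx6. By the authors' edgeR test Mnx1 stood at -1.44, Dlx1 at -1.08 and Dlx6 at -5.10 (FDR-adjusted p = 1.61e-07, 0.0141 and 0.00216). Dlx6 had few reads (mean log2 CPM -2.62, implied standard error 1.15), so the size of its fall is uncertain. Dlx1 was also called lower in the Oc1 heterozygotes, at -1.11 (FDR-adjusted p = 0.00616, same test), where Gsx1 was called higher. Dlx6 stood at -1.69 in the Pdx1 and -1.34 in the Oc1 heterozygotes, neither called. Evx1, which lies beside Hoxa13, stood at 2.64 in Pdx1 heterozygotes per the authors' deposited table (FDR-adjusted p = 1).

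Of 17 genes reported to be Hox targets or partners in other tissues, Itga8, an integrin of kidney and smooth muscle, fell by 1.23 in the Oc1 heterozygotes by the authors' deposited table (FDR-adjusted p = 0.00169). Itga8 was the only member called there, where 2.59% of all genes were called lower. Six2, a factor of kidney and stomach mesenchyme, was higher by 5.76 in double than in Pdx1 heterozygotes by the authors' deposited table taken in the opposite sense. None of the 6 microRNA genes counted within the Hox clusters and none of the 6 endothelial markers is listed.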
